A study of Homo sapiens with 6 samples.

Results

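The transcripts described here are those of 6 FGF ligands (FGF2, FGF4, FGF8, FGF17, FGF18 and FGF19) and of the 4 FGF receptor tyrosine kinases (FGFR1 to FGFR4), 10 of the 27672 genes in the deposited table. They were chosen by gene symbol as ligands of stem cells and caudal epiblast and their receptors, by a rule that uses no measured value. Earlier results of these data were known when the choice was made. The comparison asked how these transcripts differ between H9 human embryonic stem cells (hESCs, an established pluripotent line) on day 0 and the neuromesodermal progenitor-like (NMP-L) cells made from them by day 3, cells that resemble the caudal lateral epiblast from which spinal cord and paraxial mesoderm arise. Polyadenylated RNA was sequenced in 3 libraries of each state, labelled as biological replicates. According to the labels, the untreated hESCs were kept without feeders on fibronectin in a medium named DEF, to which bFGF at 30 ng/ml and the BMP inhibitor Noggin at 10 ng/ml were added. The NMP-L cells received, for 3 days, medium with N2 and B27 supplements containing CHIR99021 at 3 µM, a GSK3 inhibitor that activates Wnt signalling, and bFGF at 20 ng/ml. The study's methods name TESR medium on Geltrex for the hESCs. They also add BMP and TGFβ inhibitors from day 2, which the labels do not mention. bFGF is FGF2 protein, so recombinant ligand was present in both states. Time, medium and bFGF concentration changed together and cannot be told apart, and all 6 libraries come from a single cell line.

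FGF ligands are secreted proteins that bind FGFRs together with heparan sulfate chains on the cell surface. Bound receptors phosphorylate the adaptor FRS2, which recruits GRB2 and SOS proteins and activates the RAS-ERK cascade, and ERK activity in turn induces feedback inhibitors such as SPRY and DUSP proteins. FGF2 supports self-renewal of human pluripotent cells in culture, FGF4 is a product of the pluripotent epiblast, and FGF8, FGF17 and FGF18 form a subfamily produced in the caudal end of the vertebrate embryo. FGF19 belongs to the endocrine subfamily, whose members signal with the help of Klotho coreceptors.

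The libraries held from 19454543 to 23036426 expected counts. The detection floor was set at 3 counts, which is 0.125 to 0.160 CPM, the count scaled by the effective library size. Of the 15517 genes that passed the expression filter, 55.8% differed between the states at an adjusted p under 0.05 (edgeR's quasi-likelihood test with Benjamini-Hochberg adjustment), 29.1% being higher and 26.7% lower in NMP-L cells. Of these calls 52.1% were thus higher, a share that became 87.5% relative to GAPDH counts and 25.3% relative to HPRT1 counts. In 61.6% of tested genes the 3 libraries of each state did not overlap. The labelled states were checked with marker genes. All 6 pluripotency markers listed (POU5F1, NANOG, ZFP42, DPPA4, PRDM14 and TDGF1) were lower in NMP-L cells, with a summed level of 3761 to 4006 CPM in hESC libraries and 2010 to 2130 CPM in NMP-L libraries. Of 6 markers of caudal epiblast and NMPs, 5 were higher (T, CDX1, CDX2, NKX1-2 and SP5) and SOX2 did not differ beyond the spread. T, CDX1, CDX2 and SP5 passed the filter on their NMP-L counts, so they could only be called higher. The same holds for FOXA2, HES7 and SOX1 in the lists that follow. Markers of other cell types also moved with the state. The 5 notochord and node markers summed to 25.0 to 27.6 CPM in hESCs and 47.4 to 82.8 CPM in NMP-L cells, with all 3 tested genes (FOXA2, CHRD and FOXJ1) higher. For 5 definitive endoderm markers the sums were 1.60 to 2.40 and 14.8 to 26.0 CPM, of which FOXA2, a gene on both of these lists, averaged 18.7 CPM in NMP-L cells, while SOX17 was at or under the floor in every library. Paraxial mesoderm markers summed to 15.3 to 19.0 and 23.6 to 28.0 CPM but did not move together, since DLL1 and HES7 rose, TBX6 fell (log2 fold change -1.24, standard error 0.18), MESP2 did not pass the threshold and MSGN1 had 0 counts in every hESC library and 7, 4 and 2 in NMP-L cells. DLL1 made up most of that sum, with 11.5 and 20.9 CPM. Neural progenitor markers, mainly SOX1, summed to 1.15 to 1.75 and 9.97 to 13.3 CPM. The part of such cells in the values below was not tested. In bulk RNA a smaller number of expressing cells and less RNA per cell cannot be told apart.

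In the reported scaling each of the 5 tested ligands changed by more than any receptor. FGF4, FGF17 and FGF2 fell by 18.6-, 7.41- and 2.85-fold, FGF19 rose 2.46-fold and FGF18 rose 1.73-fold, whereas the changes of the 4 receptors lay between 1.17- and 1.36-fold in size. Relative to HPRT1 counts FGF18 (log2 fold change 0.51) moved by less than FGFR2 (-0.52), FGFR3 (-0.75) and FGFR4 (-0.66). In all, 9 of the 10 genes could be tested and all 9 passed the threshold, 3 higher and 6 lower in NMP-L cells, beside 55.8% of all tested genes. Without hESC replicate 2 or hESC replicate 3, 1 gene rather than 3 was higher. FGF8 was too low to test. Of the 9 genes, 4 differed by at least 2-fold, 1 higher and 3 lower, compared with 18.6% of all tested genes (9.38% higher and 9.18% lower). The median log2 fold change of the 9 genes was -0.36, against 0.03 for all tested genes. The changes of FGF2, FGF4, FGF17 and FGF19 were past the threshold in every alternative setting that could test them. Those of FGF18, FGFR1 and FGFR2 lay close to it and were lost in several settings. None of the 10 genes had a fractional expected count in any library, taking a value as whole only where it equals a whole number as deposited. How many of their reads also fit other genes was not tested.

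**Figure D1:**
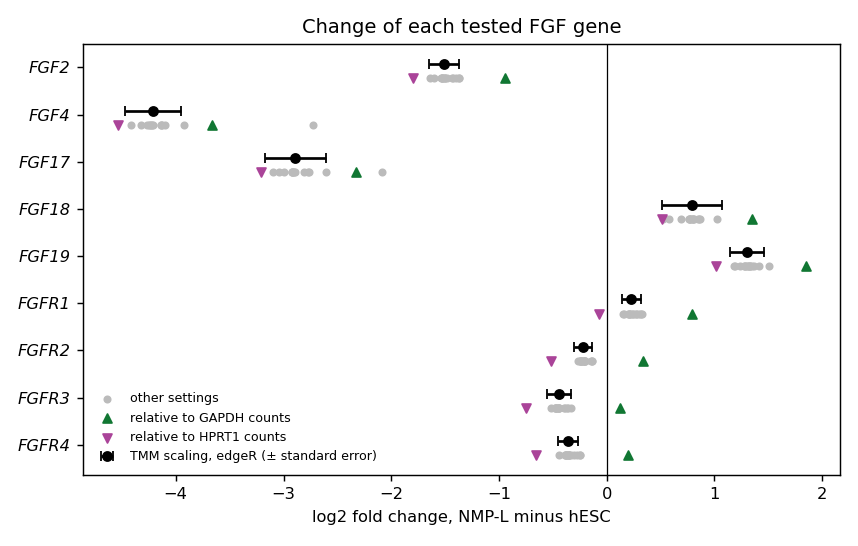
Log2 fold changes (x axis, NMP-L minus hESC) of the 9 tested FGF genes, with the reported fit in black (bars, standard error), scalings to GAPDH or HPRT1 as triangles and all other settings in grey. FGF4, FGF17 and FGF2 lie below 0 and FGF19 above 0 in every setting, while FGFR1 crosses 0 relative to HPRT1 and the other 3 receptors cross it relative to GAPDH.

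Among the ligands that changed, RefSeq start-site windows were at hand for FGF2, which fell, and FGF18, which rose. The 250 bases before each start are shown because these ligands moved in opposite directions. The rise of FGF18 passed the threshold in only 10 of 17 other settings. The sequences are from GRCh38.p14, plus strand, at chr4:122826581-122826830 for FGF2 and at chr5:171419397-171419646 for FGF18. Capitals mark exact matches to CTTTGAT, the core that TCF/LEF factors of the Wnt pathway recognise, and to CATTGT, a core of SOX factors.
FGF2: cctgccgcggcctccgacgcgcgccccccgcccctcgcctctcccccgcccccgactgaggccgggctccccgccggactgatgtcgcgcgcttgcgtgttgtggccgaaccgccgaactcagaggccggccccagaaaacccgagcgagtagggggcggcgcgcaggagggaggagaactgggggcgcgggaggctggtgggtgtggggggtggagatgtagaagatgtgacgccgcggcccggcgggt
FGF18: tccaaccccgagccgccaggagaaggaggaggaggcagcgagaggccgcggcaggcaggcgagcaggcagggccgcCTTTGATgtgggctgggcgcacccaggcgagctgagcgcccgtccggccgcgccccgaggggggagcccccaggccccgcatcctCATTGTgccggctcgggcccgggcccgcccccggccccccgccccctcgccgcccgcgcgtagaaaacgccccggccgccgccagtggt
The FGF18 window holds CTTTGAT beginning 174 bases and CATTGT beginning 89 bases before the start, and the FGF2 window holds neither. Both strands of 35116 windows of 300 bases were searched, and 2.62% of all windows hold CTTTGAT and 10.8% hold CATTGT. The octamer motif of POU factors, present in 1.77% of windows, was in 0 of the windows of these genes. GGGCGG, a core of SP/KLF factors, was present 3 times in each of these windows and in 45.0% of all windows. Windows were matched for 5 of the 10 genes (FGF2, FGF18, FGFR2, FGFR3 and FGFR4). These are matches of letters, and binding was not measured. FGF4, FGF8, FGF17, FGF19 and FGFR1 had no entry.

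FGF2, the ligand that is also added to the medium as protein, was the most abundant of the 6 ligand transcripts in both states. It lies on chromosome 4 of GRCh37 from 123747837 to 123819391. Its level was 114, 72.9 and 90.5 TPM (a level scaled by both library size and transcript length) in the 3 hESC libraries and 30.6, 32.7 and 40.7 TPM in the 3 NMP-L libraries. Every hESC library exceeded every NMP-L library, and the hESC libraries were the more spread out. In CPM, FGF2 averaged 309 ± 62.6 before and 109 ± 12.9 after differentiation (SD, n = 3 each), and the log2 fold change was -1.51 (standard error 0.14, adjusted p = 3.1e-06 from edgeR). Relative to GAPDH counts the fall was smaller, at -0.94, because that scaling shifts the median of all genes by 0.56. The 3' part of FGF2 shares 9540 bases with NUDT6, a gene on the opposite strand, and no source states whether strand was used in counting. NUDT6 had between 70 and 120 counts per library, against 2180 to 7016 for FGF2, and passed the threshold only relative to GAPDH counts (log2 fold change 0.20, standard error 0.17, adjusted p = 0.34 from edgeR).

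FGF4 and FGF19 lie on the same strand of chromosome 11, from 69585790 to 69590109 and from 69513006 to 69518790, with 66999 bases between them, and moved in opposite directions. FGF4 was counted 84, 97 and 110 times on day 0 and 5, 5 and 8 times on day 3. Its transcript was thus close to the detection floor on day 3, and the libraries of the states were far apart. The log2 fold change was -4.21 (standard error 0.26, adjusted p = 1.5e-07 from edgeR), and 0.786% of all tested genes changed by more in either direction. FGF4 passed the filter on its hESC counts. With limma on log2(TPM + 1), a scale that understates the changes of low genes, the value was -2.73. FGF19 was counted 155, 239 and 159 times before and 577, 483 and 533 times after differentiation, so that its lowest NMP-L library held more counts than its highest hESC library. Its log2 fold change was 1.3 (standard error 0.16, adjusted p = 2.8e-05 from edgeR), and it ranged from 1.01 relative to HPRT1 counts to 1.85 relative to GAPDH counts. In TPM the ratio of FGF19 to FGF4 within a library, which no scaling between libraries can change, was 1.02, 1.36 and 0.795 in hESCs and 63.1, 53.4 and 36.6 in NMP-L cells.

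The genes around this pair did not share a direction. CCND1, which encodes cyclin D1, rose (log2 fold change 0.55, standard error 0.08), as did the chloride channel gene ANO1 (0.74, standard error 0.14), and FADD, an adaptor of death receptors, fell (-0.52, standard error 0.10), except relative to GAPDH counts (0.04). Relative to HPRT1 counts neither CCND1 (0.25) nor ANO1 (0.44) passed the threshold. ORAOV1, next to CCND1, gave 0.10 (standard error 0.13) and passed the threshold only relative to GAPDH counts (0.66). FGF3, the ligand gene between FGF4 and ANO1, had at most 3 counts in any library. MYEOV was too low to test, with 9, 8 and 11 counts in hESCs and 0, 1 and 4 in NMP-L cells.

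The 3 ligands of the FGF8 subfamily did not move together. FGF17 (chromosome 8, from 21899909 to 21906320) gave 100, 80 and 118 counts on day 0 and 18, 8 and 21 on day 3, and passed the filter on the former. These groups did not overlap, and the log2 fold change was -2.89 (standard error 0.28, adjusted p = 5.4e-06 from edgeR). FGF8 (chromosome 10, from 103529866 to 103540128) was scarce in both states, with 4, 11 and 7 counts on day 0 and 3, 2 and 1 on day 3. All NMP-L libraries were at or under the floor of 3 counts, and the mean hESC level was 2.84-fold the mean floor of the NMP-L libraries. That ratio takes no account of the spread of the few hESC counts. FGF8 did not pass the expression filter. An exact permutation test of log2(CPM + 0.1), two-sided, returned 0.1, which is the minimum p for 3 libraries against 3. Without the filter edgeR gave FGF8 an adjusted p of 0.026 and DESeq2 0.085. FGF18 (chromosome 5, from 170846651 to 170884630) went the other way, with 24, 18 and 13 counts on day 0 and 33, 34 and 45 on day 3. It rose by 0.79 on the log2 scale (standard error 0.28, adjusted p = 0.032 from edgeR). This call rests on few counts. It was lost with DESeq2 (adjusted p = 0.13) and when hESC replicate 2 (0.086), hESC replicate 3 (0.14), NMP-L replicate 2 (0.059) or NMP-L replicate 3 (0.10) was left out of the edgeR fit. The ratio of FGF18 to FGF17 in TPM went from between 0.0746 and 0.163 in hESC libraries to between 1.25 and 2.84 in NMP-L libraries.

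**Figure D2:**
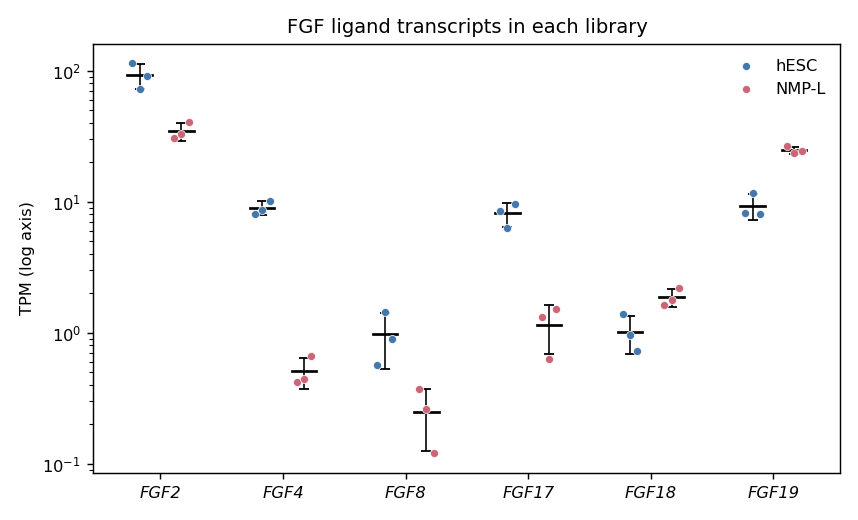
TPM of the 6 FGF ligand transcripts (log axis) in the 3 hESC and 3 NMP-L libraries, with points for libraries, bars for the mean and whiskers for the SD. FGF2 is highest in both states, FGF4 and FGF17 drop from about the level of FGF19 to near 1 TPM or less, and FGF19 and FGF18 are higher in NMP-L cells.

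Ordered by mean TPM, hESCs had FGF2 first (92.3 ± 20.4, SD, n = 3), then FGF19 (9.35 ± 2.06), FGF4 (8.98 ± 1.10) and FGF17 (8.14 ± 1.70), and last FGF18 (1.02 ± 0.334) and FGF8 (0.970 ± 0.445). FGF19, FGF4 and FGF17 overlapped each other in sequence, as did FGF18 and FGF8, so only the steps from FGF2 to FGF19 and from FGF17 to FGF18 separated the libraries. In NMP-L cells the order was FGF2 (34.7 ± 5.35), FGF19 (24.7 ± 1.57), FGF18 (1.88 ± 0.296), FGF17 (1.15 ± 0.465), FGF4 (0.507 ± 0.133) and FGF8 (0.250 ± 0.125), with FGF17 and FGF4 the only neighbours that overlapped. The distance between FGF2 and FGF19 shrank from 9.87-fold in hESCs to 1.4-fold in NMP-L cells. FGF2 made up 81.0%, 71.5% and 75.4% of the summed TPM of the 6 ligands in hESC libraries and 50.3%, 55.1% and 58.7% in NMP-L libraries. The share of FGF19 was between 5.86% and 11.5% in hESCs and between 34.8% and 43.6% in NMP-L cells. The summed TPM of the 6 ligands was 121 ± 19.1 in hESCs and 63.2 ± 5.45 in NMP-L cells.

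All 4 receptor genes were expressed in both states, and their order in TPM was the same: FGFR1, FGFR2, FGFR4, FGFR3. FGFR1 (chromosome 8, from 38257733 to 38326352) was measured at 117, 119 and 132 TPM in hESCs and at 169, 139 and 154 TPM in NMP-L cells. The NMP-L libraries were higher, but the lowest of them lay only a little above the highest hESC library. The log2 fold change was 0.23 (standard error 0.09, adjusted p = 0.044 from edgeR). FGFR2 (chromosome 10, from 123237846 to 123357972) gave 104, 92.4 and 104 TPM in hESCs and 93.6, 86.1 and 92.7 TPM in NMP-L cells. Its libraries overlapped in TPM but not in CPM, where it averaged 206 ± 11.1 on day 0 and 177 ± 6.57 on day 3 and fell by 0.22 on the log2 scale (standard error 0.08, adjusted p = 0.027 from edgeR). FGFR3 (chromosome 4, from 1795020 to 1810599), the least abundant receptor, gave 11.9, 12.3 and 13.6 TPM in hESCs and 10.4, 8.72 and 10.3 TPM in NMP-L cells, and all NMP-L libraries were lower. Its log2 fold change was -0.44 (standard error 0.11, adjusted p = 0.0041 from edgeR). FGFR4 (chromosome 5, from 176513906 to 176525145), the receptor most closely linked to FGF19 signalling, gave 32.6, 36.0 and 36.2 TPM in hESCs and 29.4, 30.2 and 28.1 TPM in NMP-L cells. The libraries did not overlap, and the log2 fold change was -0.36 (standard error 0.09, adjusted p = 0.0074 from edgeR).

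These receptor changes were small beside the effect of scaling. Relative to GAPDH counts FGFR2, FGFR3 and FGFR4 took the opposite sign (log2 fold changes 0.34, 0.12 and 0.20), and of these only FGFR2 passed the threshold (adjusted p = 0.011, 0.38 and 0.087 from edgeR). Relative to HPRT1 counts, which shift the median of all genes by -0.30, FGFR1 gave -0.07 and did not pass the threshold (adjusted p = 0.79). The call of FGFR1 was lost when hESC replicate 1 (log2 fold change 0.16, adjusted p = 0.16 from edgeR), hESC replicate 2 (0.22, 0.095), hESC replicate 3 (0.27, 0.059) or NMP-L replicate 1 (0.15, 0.20) was left out. That of FGFR2 was lost without hESC replicate 3 (adjusted p = 0.087), NMP-L replicate 2 (0.099) or NMP-L replicate 3 (0.071). The ratios of receptors within a library do not depend on the scaling. FGFR1 exceeded FGFR2 in TPM by 1.12-, 1.29- and 1.26-fold in hESC libraries and by 1.81-, 1.61- and 1.66-fold in NMP-L libraries, and it exceeded FGFR3 by 9.67- to 9.82-fold in hESCs and by 14.9- to 16.3-fold in NMP-L cells. FGFR1 exceeded FGFR4 by 3.32- to 3.64-fold and by 4.60- to 5.75-fold. In each of these ratios the hESC and NMP-L libraries did not overlap. FGFR1 thus made up 45.3 ± 1.15% of the summed receptor TPM in hESCs and 54.2 ± 1.66% in NMP-L cells (SD, n = 3 each), FGFR2 37.1 ± 1.94% and 32.0 ± 0.956%, FGFR4 12.9 ± 0.827% and 10.3 ± 0.952%, and FGFR3 4.65 ± 0.148% and 3.45 ± 0.158%. The sum itself was 271 ± 13.5 TPM in hESCs and 284 ± 19.4 TPM in NMP-L cells, with overlapping ranges.

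**Figure D3:**
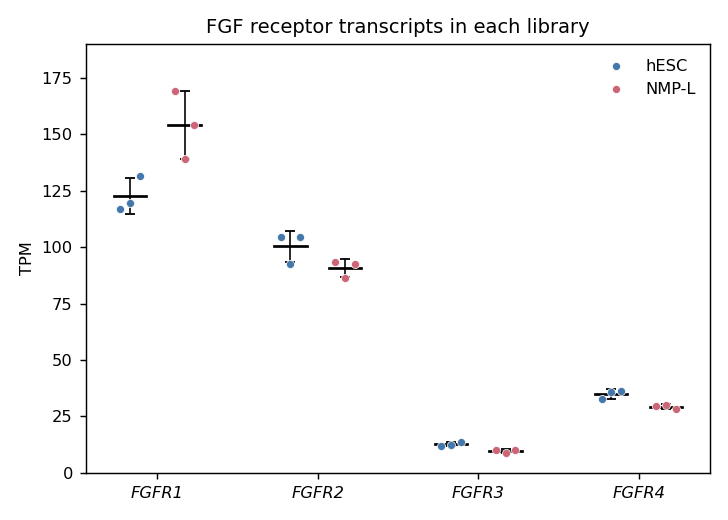
TPM of the 4 FGF receptor transcripts (linear axis from 0) in the 3 hESC and 3 NMP-L libraries, with points for libraries, bars for the mean and whiskers for the SD. The order FGFR1, FGFR2, FGFR4, FGFR3 holds in both states, FGFR1 is higher in NMP-L cells, and the libraries of FGFR2 overlap. Relative to HPRT1 counts the FGFR1 difference changes sign (-0.07).

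**Figure D4:**
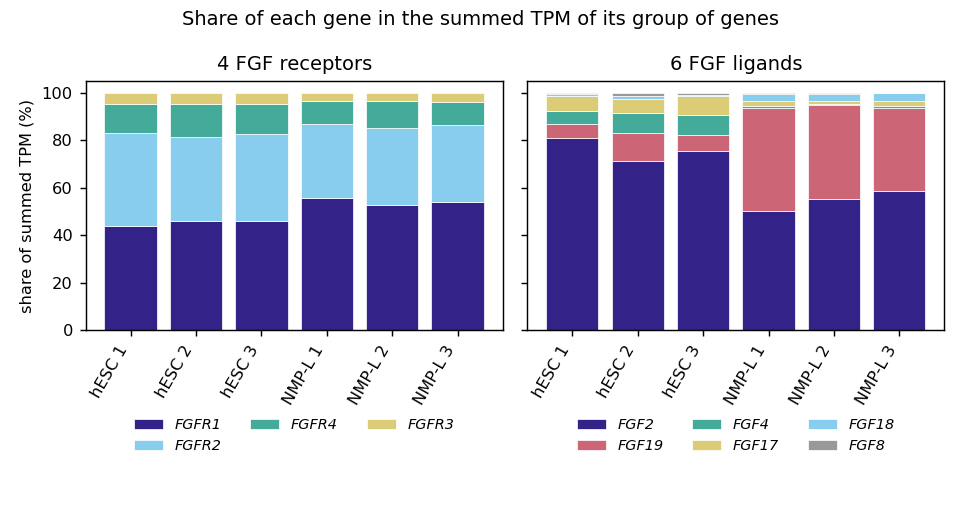
Share (y axis, percent) of each receptor in the summed TPM of the 4 receptors (left) and of each ligand in the summed TPM of the 6 ligands (right), with a stacked bar for each library. FGFR1 takes on average 45.3% in hESC and 54.2% in NMP-L libraries, and FGF19 takes 5.86% to 11.5% and 34.8% to 43.6%.

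FGFR1, FGFR2 and FGFR3 are spliced into IIIb and IIIc forms with different ligand preferences, which gene-level values cannot separate. Of 4 splicing regulators that act on the choice of the FGFR2 exon, ESRP2, which favours the epithelial IIIb form, fell (60.4 ± 3.73 CPM on day 0, 33.9 ± 2.69 CPM on day 3, log2 fold change -0.83, standard error 0.10, adjusted p = 2.1e-05 from edgeR). Its paralogue ESRP1, which has the same activity and was more highly counted at 277 ± 22.1 and 264 ± 13.4 CPM, did not pass the threshold (-0.07, standard error 0.08), and nor did RBFOX2 (0.07, standard error 0.08) or PTBP1 (-0.09, standard error 0.08). Relative to GAPDH counts these 3 genes came out higher (0.49, 0.63 and 0.47). A rough view of transcript length comes from dividing counts by TPM, which recovers the mean effective length that RSEM used for a gene. This length is a gene-level value too and cannot separate the IIIb and IIIc forms. With the hESC mean set to 100%, FGFR2 stood at 99.1, 99.9 and 100.9% in hESC libraries and at 100.7, 102.7 and 101.0% in NMP-L libraries, and the states overlapped. Its mean shift of 1.48% was exceeded by 6.17% of 3598 reference genes (each library at 1000 counts or more), whose median absolute shift was 0.0288%. FGFR3 shifted by 1.25%, exceeded by 7.34% of the reference genes, again with overlapping libraries. FGFR3 had only 368 to 534 counts per library, fewer than any reference gene, so its rank among them is not like for like. The libraries also overlapped for FGFR1, FGFR4, FGF2 and FGF19, the other genes with at least 5 TPM in every library. These shifts are given without a test.

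The other secreted FGF genes were low in counts. Of 12 other secreted ligands 1 passed the filter, FGF1, a ligand of all the receptors, with 16, 19 and 19 counts on day 0 and 5, 6 and 0 on day 3 (log2 fold change -2.47, standard error 0.55, adjusted p = 0.0026 from edgeR). FGF1 passed the filter on its hESC counts. With any single library left out, when the filter admits lower genes, 2 (without hESC replicate 2 or NMP-L replicate 1) or 3 (without any of the others) of the 12 passed the threshold. FGF3, FGF5, FGF6, FGF7 and FGF10 were at or under the floor in every library, FGF5, a marker of primed epiblast in the mouse, with 0 counts in all 6. In CPM the libraries of 5 of the 12 genes did not overlap, beside 61.6% of all tested genes. That share covers genes that passed the filter, which 11 of the 12 did not, so it is not like for like. Of the 5 genes FGF9 was higher in NMP-L cells, with 3, 1 and 3 counts on day 0 and 15, 12 and 7 on day 3. The other 4 were lower: FGF1, FGF16 (8, 11 and 18 counts, then 2, 4 and 2), FGF22 (5, 1 and 3, then 0, 0 and 1) and FGF23 (15, 14 and 8, then 5, 8 and 7). Apart from FGF1 these were not tested and are named after their values were seen. FGF20, of the same subfamily as FGF9 and FGF16, had 0, 1 and 2 counts on day 0 and 1, 6 and 4 on day 3, and overlapped. The 12 genes together gave 2.88 to 3.34 CPM in hESC libraries and 1.38 to 2.10 CPM in NMP-L libraries. CPM does not allow for length, and in TPM FGF16 reached 3.4, 4.34 and 7.4 in hESCs and 0.74, 1.56 and 0.73 in NMP-L cells, so its hESC libraries lay above all those of FGF18 and FGF8. The 4 intracellular FGF homologous factors bind sodium channels and do not signal through FGFRs in the manner of secreted ligands. All 4 passed the threshold, beside 55.8% of all tested genes. FGF11 (-1.51, standard error 0.12) and FGF13 (-0.90, standard error 0.16) fell, and FGF12 (0.70, standard error 0.14) and FGF14 (1.63, standard error 0.36) rose on the log2 scale. FGF14, with 6, 7 and 6 counts on day 0 and 17, 21 and 32 on day 3, passed the filter on the latter. FGF12 (0.40) missed the threshold relative to HPRT1 counts and FGF13 (-0.34) relative to GAPDH counts.

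At the cell surface, 9 of 12 coreceptor and modulator genes were tested, and the median log2 fold change was -0.08. Of the 9 genes, 3 rose and 2 fell, beside 29.1% and 26.7% of all tested genes. FGFBP1, a carrier that releases FGFs from the extracellular matrix, rose by 4.14 on the log2 scale (standard error 0.60, adjusted p = 1.2e-04 from edgeR), from 0, 1 and 3 counts in hESCs to 36, 17 and 37 in NMP-L cells. Because its hESC counts did not exceed the floor, the fitted size is no bound. The mean NMP-L level of FGFBP1 was 8.43-fold the mean hESC floor, a ratio that takes no account of the spread of the NMP-L libraries. FLRT3, a membrane protein that promotes FGF signalling, rose by 3.52 (standard error 0.39, adjusted p = 1.4e-05 from edgeR), from 6, 9 and 3 to 93, 48 and 107 counts. Both FGFBP1 and FLRT3 passed the filter on their NMP-L counts. FGFRL1, a receptor-like protein without a kinase domain, fell by 1.10 (standard error 0.10, adjusted p = 4.0e-06 from edgeR), with 645, 764 and 753 counts in hESCs and 409, 378 and 392 in NMP-L cells. In the same fit the 4 kinase receptors moved by at most 0.44, whereas relative to GAPDH counts FGFRL1 (-0.54) moved by less than FGFR1 (0.79). FLRT1, with 9 to 27 counts in any library, fell by 0.83 (standard error 0.33), just past the threshold. Its call was lost with DESeq2 (adjusted p = 0.16) and in edgeR without hESC replicate 1 (0.16), hESC replicate 2 (0.097), hESC replicate 3 (0.060), NMP-L replicate 1 (0.18) or NMP-L replicate 2 (0.081). The Klotho coreceptors of endocrine FGFs, named after their values were seen, were hardly detectable, with 4, 1 and 0 counts of KLB in hESCs and 0, 5 and 0 in NMP-L cells, and at most 1 count of KL in any library.

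Downstream of the receptors, 3 of 10 adaptor genes passed the threshold, beside 55.8% of all tested genes. SHC1 (log2 fold change 0.57, standard error 0.08) and SOS1 (0.44, standard error 0.15) rose, and CBL, a ubiquitin ligase that targets activated receptors, fell (-0.40, standard error 0.09), except relative to GAPDH counts (0.16). Relative to HPRT1 counts neither SHC1 (0.26) nor SOS1 (0.14) passed the threshold (adjusted p = 0.25 and 0.59 from edgeR). The call of SOS1 was also lost without hESC replicate 2 (adjusted p = 0.11 from edgeR), hESC replicate 3 (0.082), NMP-L replicate 2 (0.060) or NMP-L replicate 3 (0.12), and without hESC replicate 1, 6 adaptors passed. The median of the 10 adaptors was 0.19. FRS2, the adaptor that binds FGFRs directly, gave 0.12 (standard error 0.18) and did not pass the threshold. It is named here after its value was seen. Of all tested genes 55.8% passed the threshold, 29.1% being higher and 26.7% lower. Of 15 feedback and response genes, 12 passed the threshold, 5 higher and 7 lower, with a median of -0.38. The 4 with the largest changes were DUSP6, an ERK phosphatase, which rose by 5.62 (standard error 0.23), from 20, 24 and 10 counts to 992, 815 and 1338, and ETV5 (-1.59, standard error 0.12), SPRY4 (-1.45, standard error 0.08) and EGR1 (-1.39, standard error 0.10), which fell. Among 15 tested enzymes that make or trim heparan sulfate, 4 rose and 4 fell, beside 29.1% and 26.7% of all tested genes. The median of the 15 enzymes was -0.06. SULF2, a 6-O-endosulfatase, rose by 1.31 (standard error 0.10), its paralogue SULF1 fell by 1.13 (standard error 0.15), and the 6-O-sulfotransferases HS6ST3 (-1.25, standard error 0.19) and HS6ST1 (-1.01, standard error 0.09) fell. HS6ST2, a further 6-O-sulfotransferase outside the 4 largest changes and named after its value was seen, rose by 0.80 (standard error 0.17), so the enzymes of this step did not share a direction.

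**Figure D5:**
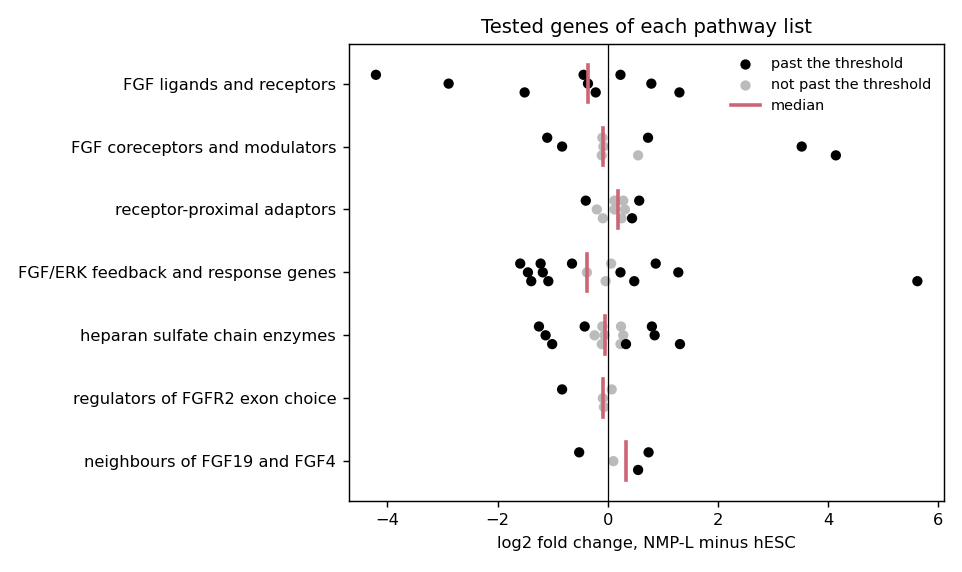
Log2 fold changes (x axis, NMP-L minus hESC) of the tested genes in each list, black past the threshold and grey not, with the median in red. The FGF ligands and receptors spread from -4.21 to 1.3, the adaptors lie close to 0, and DUSP6 at 5.62 stands apart from the other feedback and response genes.

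Genes with the profile most like that of FGF19, the ligand with the largest rise, were PSMC3IP, HES5 and LOC100129083 (Pearson's r of log2 CPM over the 6 libraries between 0.9976 and 0.9985), and those most like FGF4, with the largest fall, were RTF1, NRP1 and PRR19 (between 0.9989 and 0.9993). With 2 states and 6 libraries such likeness is common. In all, 68 genes had an r over 0.99 with FGF19 and 311 with FGF4, and the fold changes of these neighbours ranged widely, from 0.58 for PSMC3IP to 2.77 for HES5 and from -0.38 for RTF1 to -2.42 for NRP1 on the log2 scale. RTF1 was higher in NMP-L cells relative to GAPDH counts (0.19).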

How the data were processed

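Single-end poly(A) RNA-seq of 3 hESC and 3 NMP-L libraries was analysed from 1 gene-level table on hg19. The authors deposited RSEM expected counts, not normalised between libraries, and TPM, which are scaled by effective length and library size. The submitters' processing notes name cutadapt 1.9.1, STAR 2.5.2a, RSEM 1.3.0 and DESeq2 1.12.3. The annotation and the use of strand in counting are not given in the sources used here.

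Here the counts were rounded, filtered with filterByExpr (minimum count 10, 15517 of 27672 genes), scaled by TMM and tested across all genes with edgeR 4.0.16 in R 4.3.3, without covariates, with Benjamini-Hochberg adjustment and a threshold of 0.05. CPM use TMM-scaled library sizes. Standard errors are the log2 fold change over the square root of F. P-values set each difference against the spread between these replicates of a single cell line, and do not cover the spread between lines. TPM served to compare genes. Gene positions are from GENCODE 44 on GRCh37, and start-site windows from RefSeq on GRCh38.p14. DESeq2 1.42.0 and limma 3.58.1 were alternatives. The pipeline was tested on simulated data.

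The 10 genes and all lists were chosen with earlier results of these data known. All 10 are named. From each list up to 4 genes past the threshold with the largest changes are named, and lists of at most 6 genes in full. The genes most alike are the 3 with the highest correlation to the largest rise and the largest fall. The effective lengths, shares and motif matches were added after seeing the data.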

Additional observations from a re-analysis of the deposited data

How the results depend on the processing

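Results were recomputed under 17 other settings, 6 of which dropped a single library. Of 340 recomputed values, 293 stayed on the same side of the threshold with the same sign or, for counts of genes, within 1.5 times. FGF2 and FGF19 did so in 17 of 17 settings, and FGF4 and FGF17 in 16 of 16, since they could not be tested with at least 10 counts in every library. Relative to GAPDH counts FGFR2 (0.34), FGFR3 (0.12) and FGFR4 (0.20) reversed, and relative to HPRT1 counts FGFR1 (-0.07) did. The rise of FGF18 was no longer past the threshold relative to HPRT1 counts (0.51), with DESeq2 (0.77) or with the replicate block (0.80), and without single libraries it lay between 0.58 and 1.02. FGFR1 lost its call with RLE size factors (0.21), upper-quartile scaling (0.20), DESeq2 (0.21) and the replicate block (0.23), and lay between 0.15 and 0.29 without single libraries. FGFR2 lost its call with library size only (-0.15), limma on TPM (-0.14 with a pseudocount of 0.1 or 1) and the replicate block (-0.22), and lay between -0.27 and -0.20 without single libraries. FGF8 was past the threshold without the filter (-2.02), against -1.3 in log2(CPM + 0.1). Leaving out hESC replicate 3 or adding the replicate block gave the fewest calls among the 10 genes, 6. The number higher was 1 relative to HPRT1 counts, with DESeq2 and with the replicate block, and 1 to 2 without single libraries, against 3. The number lower was 3 relative to GAPDH counts, against 6. Of the other secreted ligands 2 passed with DESeq2, 0 with at least 10 counts in every library, 3 without the filter and 2 to 3 without single libraries, against 1. Relative to GAPDH counts 8 surface genes, 9 adaptors and 4 exon regulators passed, against 5, 3 and 1. With at least 10 counts in every library 2 surface genes did, and 2 to 6 adaptors did without single libraries. The cause of these shifts was not tested, apart from the move of all genes under the GAPDH and HPRT1 scalings. The replicate numbers are shared by the states, but the deviations of same-numbered libraries correlated at -0.37, -0.058 and -0.13, in 0 of 3 cases best with their own number, and no source states a pairing. With the replicate block 7560 of all genes passed, against 8653. The order of the receptors in TPM held without any single library, and in hESCs FGF19 moved below FGF17 without replicate 2 and FGF8 above FGF18 without replicate 1. Of 623 values recomputed for 37 other named genes, 26 lost and 4 gained a call and 5 reversed, all of these relative to GAPDH counts (CBL 0.16, ESRP1 0.49, PTBP1 0.47, FADD 0.04, RTF1 0.19). Low counts limit FGF4, FGF8, FGF17 and FGF18.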
